A study of Homo sapiens with 6 samples.

Results

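The genes described here are 10 regulators of the cell division cycle: the cyclin genes CCND1, CCND3, CCNE1, CCNE2, CCNA2, CCNB1, CCNB2 and CCNF, the phosphatase gene CDC25A and the inhibitor gene CDKN1B. They were taken by name from count tables of 33514 gene symbols, and all 10 were present and passed the filter on low counts that left 16209 genes. The cells were PC3, a human prostate cancer line that grew out of a bone metastasis. The groups were 2 untreated libraries, 2 libraries from cells given 50 µM heme in the medium for 2 h and 2 from cells given the same dose for 4 h. The untreated libraries are the only control, with none separate for 2 h or 4 h. Heme therefore cannot be told apart from time or handling. Heme is the iron-porphyrin that hemopexin binds in plasma, and the series title links it to G-quadruplexes, folded structures of G-rich DNA.

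Cyclins are regulatory subunits that switch on cyclin-dependent kinases (CDKs) and are made and destroyed in turn as a cell divides. D-type cyclins respond to growth signals and act early in G1, E-type cyclins drive entry into DNA synthesis, cyclin A2 works through S and G2 phase, and B-type cyclins start mitosis. CDC25A removes inhibitory phosphates from CDKs, and p27, the product of CDKN1B, binds and blocks cyclin-CDK complexes. Cyclin F departs from the family, since it is an F-box protein that selects targets for a ubiquitin ligase and activates no CDK.

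Gene counts per library totalled 53129375 to 55537611, and levels are given as TMM-scaled CPM, a depth-corrected read level. Fold changes are on the log2 scale, each with a standard error (SE), for n = 2 libraries per group. A gene is called where its p from edgeR's quasi-likelihood test, adjusted by Benjamini and Hochberg's method across all 16209 genes, is under 0.05. Nothing in the labels ties the replicates to separate cultures, so the p-values rest on differences among single libraries and these may be technical. HMOX1, the heme-degrading oxygenase known to be induced by heme, lay at 10.4 and 11.4 CPM in the controls, 451 and 328 CPM at 2 h and 382 and 341 CPM at 4 h. The epithelial markers EPCAM, KRT8, KRT18 and KRT19 summed to between 1591 and 1834 CPM in every library, with EPCAM lower at 2 h (log2 -0.29), whereas the prostate luminal markers KLK3 and FOLH1 had 0 counts throughout.

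After 2 h of heme 7 of the 10 genes fell and 0 rose: CCNF, CCNE1, CCNE2, CDC25A, CCNA2, CCNB1 and CCND1. Across all genes tested, 15.8% were called lower and 15.9% higher in that comparison. With scaling to library totals alone, 1815 genes were called lower and 3042 higher in place of 2557 and 2579, and the same number of the 10 genes, 7, was called lower. The median log2 fold change of the 10 genes was -0.67, against 0.017 over all genes tested. The 2 h and control libraries did not overlap for any of the 10 genes, 3 being above and 7 below, as was the case for 34.6% (above) and 33.2% (below) of all genes. CCNF moved most, to 29.7% of its control level. After 4 h, 0 of the 10 genes were called against control. The bulk libraries do not tell a smaller share of cells in one phase of the cycle from less RNA per cell.

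**Figure D1:**
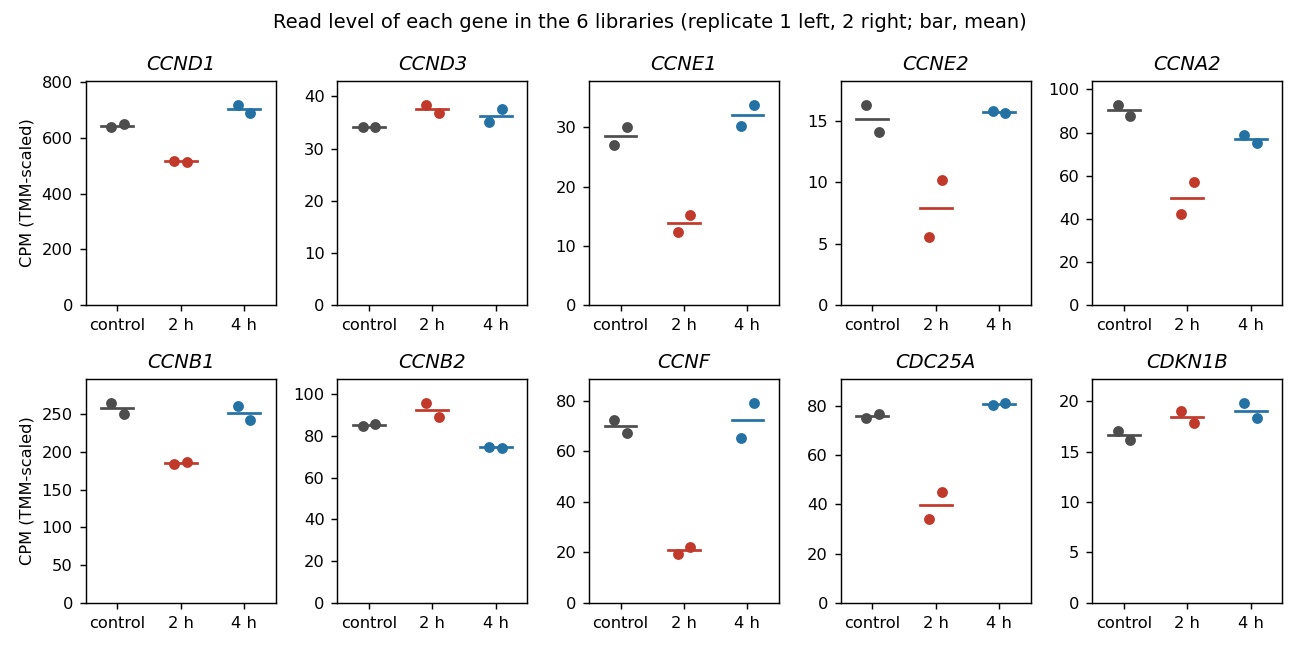
CPM of each of the 10 genes (vertical axes, linear from 0 and scaled per gene) in the control, 2 h and 4 h libraries; points are libraries and bars are means of 2. CCNF lies at 19.4 and 22.2 CPM at 2 h, below its 4 other libraries, while CDKN1B lies between 16.1 and 19.8 CPM throughout.

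The DNA just upstream of RefSeq starts is shown first for some of these genes, as a description. Whether promoter sequence had a part in the falls was not tested. Windows from 250 bases before to 50 after a transcription start were taken from RefSeq on GRCh38.p14. They covered 8 of the 10 genes in 10 windows, 3 of them for CCND3. CCND1 and CCNE2, which fell at 2 h, had no window. Motifs were searched on both strands: the CCAAT box (CCAAT), which NF-Y binds, the cell cycle homology region or CHR (TTTGAA or TTCGAA), an E2F site (TTTCGCGC, TTTGGCGC or TTCCCGCC), the first part of a cAMP response element (TGACGT), an E-box (CACGTG) and a GC box (GGGCGG). In the lines below, capitals mark CCAAT, CHR, E2F and TGACGT matches, and each stretch ends at the base before the RefSeq start. GENCODE, used for the gene positions given further on, places most starts elsewhere. By those positions the CCNB1 stretch lies wholly inside its gene. The stretches of CCNF, CCNE1, CCNA2 and CCNB2 run partly into theirs, and that of CDC25A lies wholly upstream. Distances from a start therefore depend on the annotation. CCNF is shown at chr16:2429197-2429446, plus strand, as the gene that fell most. CCNE1 at chr19:29811861-29811990, plus strand, is the next. CCNA2 at chr4:121823884-121824013 and CDC25A at chr3:48188418-48188547, both minus strand, also fell. CCNB1 at chr5:69167020-69167149 and CCNB2 at chr15:59105016-59105145, both plus strand, are sister genes of which the first fell and the second was not called.
CCNF: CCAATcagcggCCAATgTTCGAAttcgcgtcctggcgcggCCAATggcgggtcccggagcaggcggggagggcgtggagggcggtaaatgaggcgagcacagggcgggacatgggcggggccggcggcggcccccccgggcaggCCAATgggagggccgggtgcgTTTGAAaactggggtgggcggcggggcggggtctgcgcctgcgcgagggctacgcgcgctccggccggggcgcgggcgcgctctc
CCNE1: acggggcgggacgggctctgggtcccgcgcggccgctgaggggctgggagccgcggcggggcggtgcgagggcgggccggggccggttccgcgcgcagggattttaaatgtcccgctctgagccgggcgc
CCNA2: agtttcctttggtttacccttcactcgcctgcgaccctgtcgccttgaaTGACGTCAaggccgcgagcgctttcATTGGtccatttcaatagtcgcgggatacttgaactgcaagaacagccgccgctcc
CDC25A: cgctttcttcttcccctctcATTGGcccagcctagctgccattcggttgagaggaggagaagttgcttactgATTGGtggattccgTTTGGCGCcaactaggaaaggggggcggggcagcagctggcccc
CCNB1: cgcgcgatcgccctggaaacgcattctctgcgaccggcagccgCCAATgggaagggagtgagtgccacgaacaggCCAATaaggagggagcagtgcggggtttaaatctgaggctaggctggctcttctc
CCNB2: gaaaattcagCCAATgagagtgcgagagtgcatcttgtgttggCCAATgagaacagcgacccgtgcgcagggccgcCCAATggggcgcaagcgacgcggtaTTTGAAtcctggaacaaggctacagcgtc

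A CCAAT box was present in a window of 7 of the 8 genes, against 34.6% of all 35116 RefSeq windows of this length, and CCNE1 was the gene with none. It was found in 4 of the 5 genes that fell and in 3 of the 3 that were not called at 2 h. CCNB1 and CCNB2 carry CCAAT boxes at nearly the same places, counted from the RefSeq start: positions -87 and -55 in CCNB1 and -87 and -54 in CCNB2. CCNB2 has further boxes at -244 and -120 and a TTTGAA element at -29. The searched CHR letters, TTTGAA or TTCGAA, occurred in CCNF and CCNB2, against 16.4% of all windows. Other spellings of this element were not searched, so the remaining genes are not shown to lack it. CDC25A held the single match to the searched E2F letters, TTTGGCGC, at -44 (4.24% of all windows). Other E2F spellings were not searched, so the other genes are not shown to lack such a site. CCNA2 held the single TGACGT, on both strands, as overlapping parts of a palindrome (7.98%), and CCNB1 the single E-box (7.26%). A GC box lay in all 8 genes, against 45% of all windows. The run pattern of G-quadruplexes, 4 runs of GGG with 1 to 7 bases between them, occurred in CCND3, CCNE1 and CCNF, against 24.9% of all windows, and overlapped GC boxes there in CCNE1, CCNF and 2 of the CCND3 windows. The 8 genes are counted per gene, CCND3 through any of its 3 windows, while the shares of all windows are per window. Nor was the background matched for GC content, which ran from 52% in CCNB2 to 81% in CCNE1. These letter matches describe the windows, and binding was not measured.

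**Figure D2:**
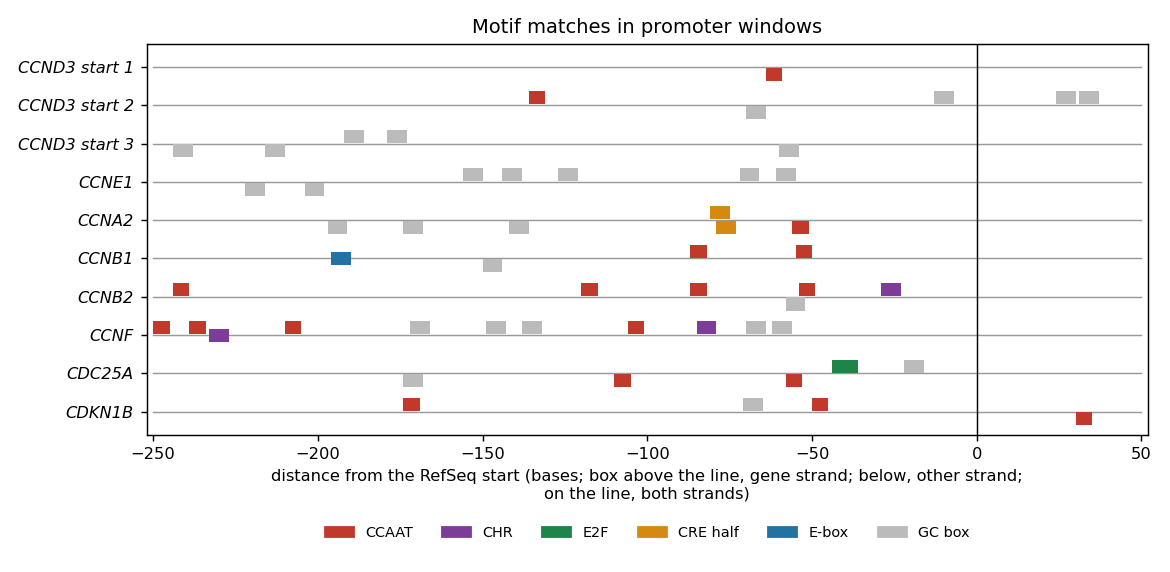
Positions of the motif matches (boxes, coloured by motif) in the promoter windows of the 8 genes with a RefSeq window; the horizontal axis is the distance in bases from the start, boxes above a line are on the gene's strand, boxes below on the other and boxes on the line on both. G runs are not drawn. Of the letters searched, CCNE1 shows GC boxes only. The CCAAT boxes of CCNB1 and CCNB2 align near -87 and -55.

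CCND1, the D-type cyclin that couples growth signals to CDK4 and CDK6, was by far the most read of the 10 genes. It lay at 639 and 649 CPM in the controls, 516 and 515 CPM at 2 h and 718 and 690 CPM at 4 h. The 2 h libraries were below both controls and the 4 h libraries above both. The fall at 2 h was small (log2 -0.32, SE 0.09, edgeR adjusted p = 0.0107). It was not called without control replicate 1 (edgeR adjusted p = 0.0923) or without control replicate 2 (edgeR adjusted p = 0.0857), although the value was then -0.34 or -0.33. From 2 h to 4 h CCND1 rose (log2 0.45, SE 0.09, edgeR adjusted p = 0.00139), and at 4 h it stood at 109% of control, which was not called. CCND1 (ENSG00000110092.3) lies on chromosome 11 from 69641087 to 69654474 in GENCODE release 29 on GRCh38. Of its 4830 exonic bases 497 are shared with a gene on the opposite strand, LTO1, counted here under its older symbol ORAOV1 (log2 -0.25 at 2 h, edgeR adjusted p = 0.108).

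CCND3, the other D-type cyclin expressed here, showed no called change in any comparison. Its libraries read 34.2 and 34.2 CPM in the controls, 38.3 and 36.8 CPM at 2 h and 35.1 and 37.6 CPM at 4 h. At 2 h both libraries were slightly above the controls (log2 0.14, 95% interval -0.10 to 0.37, edgeR adjusted p = 0.377). CCND3 (ENSG00000112576.12) lies on chromosome 6 from 41934933 to 42050357. The third D-type gene, CCND2, had 0 counts in 5 libraries and 1 count in the other, where 0 counts allow up to 0.0565 CPM in the shallowest library. The log2 ratio of CCND1 to CCND3 reads went from 4.22 and 4.25 in the controls to 3.75 and 3.81 at 2 h and to 4.36 and 4.20 at 4 h. The 2 h ratios did not overlap those of the other groups, but with 2 libraries against 2 an exact permutation test cannot go below p = 0.333, so no test was made of this or the other ratios.

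CCNE1, the cyclin E gene that partners CDK2 at the start of S phase, lost slightly more than a log2 unit. Its levels were 27.02 and 30.1 CPM in the controls, 12.4 and 15.2 CPM at 2 h and 30.3 and 33.8 CPM at 4 h. The 2 h libraries were well below all others, and the 4 h libraries lay just above the controls. CCNE1 fell 2.07-fold at 2 h (log2 -1.05, SE 0.14, edgeR adjusted p = 8.14e-05) and rose 2.32-fold from 2 h to 4 h (log2 1.22, SE 0.14, edgeR adjusted p = 2.55e-05). The 4 h level did not pass the test against control (log2 0.17, 95% interval -0.12 to 0.45). CCNE1 (ENSG00000105173.13) lies on chromosome 19 from 29811898 to 29824308.

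CCNE2, the second E-type cyclin, fell as well but with a wide gap between the 2 h replicates. It read 16.3 and 14.1 CPM in the controls, 5.55 and 10.2 CPM at 2 h and 15.8 and 15.7 CPM at 4 h. Both 2 h libraries were below every other library (log2 -0.94, SE 0.21, edgeR adjusted p = 0.00381). Without 2 h replicate 1 the value was -0.57, and without 2 h replicate 2 it was -1.47, both called. CCNE2 rose again by 4 h (4 h against 2 h, log2 0.998, SE 0.21, edgeR adjusted p = 0.0028), where it stood at 104% of control. CCNE2 (ENSG00000175305.17) lies on chromosome 8 from 94879770 to 94896678, and 1629 of its 4397 exonic bases are also exons of INTS8 on the opposite strand. The strand setting of the counting is not given in the sources used here, so reads in that stretch cannot be assigned with certainty; INTS8 itself was not called at 2 h (log2 -0.15, edgeR adjusted p = 0.304). The log2 ratio of CCNE1 to CCNE2 ran from 0.73 to 1.10 in the controls and from 0.58 to 1.16 at 2 h, so the groups overlapped.

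CCNA2 encodes cyclin A2, which binds CDK2 in S phase and CDK1 later. It lay at 92.7 and 87.8 CPM in the controls, 42.4 and 57.1 CPM at 2 h and 78.9 and 75.3 CPM at 4 h. It fell 1.82-fold at 2 h (log2 -0.86, SE 0.13, edgeR adjusted p = 2.20e-04) and then rose 1.55-fold (log2 0.63, SE 0.13, edgeR adjusted p = 0.00198). Its 4 h libraries stayed below both controls, at 85.4% of their mean, a difference that did not pass the test (log2 -0.23, 95% interval -0.50 to 0.04). CCNA2 (ENSG00000145386.9) lies on chromosome 4 from 121816444 to 121823933 and shares 254 of its 2798 exonic bases with EXOSC9 on the opposite strand, which was not called at 2 h (log2 -0.30, edgeR adjusted p = 0.0657).

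CCNB1 and CCNB2 encode the B-type cyclins that activate CDK1 for mitosis, and the pair parted at 2 h. CCNB1 read 265 and 251 CPM in the controls, 184 and 186 CPM at 2 h and 261 and 243 CPM at 4 h. CCNB1 fell at 2 h (log2 -0.48, SE 0.09, edgeR adjusted p = 0.00142) and rose again by 4 h (4 h against 2 h, log2 0.44, SE 0.09, edgeR adjusted p = 0.00248). CCNB2 read 84.6 and 85.7 CPM in the controls, 95.8 and 88.9 CPM at 2 h and 74.8 and 74.1 CPM at 4 h. Its 2 h libraries were the highest and its 4 h libraries the lowest, with no overlap between groups. Neither time was called against control, with log2 0.12 at 2 h (95% interval -0.09 to 0.32) and log2 -0.19 at 4 h (95% interval -0.40 to 0.01).

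Between 2 h and 4 h CCNB2 fell (log2 -0.31, SE 0.10, edgeR adjusted p = 0.0275), the opposite direction from CCNB1. That call held in 5 of 14 alternatives, and over all 14 the edgeR or DESeq2 adjusted p ran from 0.00838 to 0.999999. It was lost in 9: in the fits without control replicate 1 (0.0816), control replicate 2 (0.102), 2 h replicate 1 (0.0989), 4 h replicate 1 (0.106) and 4 h replicate 2 (0.115), in the fits without a filter on low counts (0.0811) and of the compared groups alone (0.0872), with the replicate number as a block (edgeR adjusted p = 0.0515), and when a change beyond 1.5-fold was required (0.999999). The log2 ratio of CCNB1 to CCNB2 was 1.65 and 1.55 in the controls, 0.94 and 1.07 at 2 h and 1.80 and 1.71 at 4 h, so that 3.03 CCNB1 reads per CCNB2 read became 2.01 and then 3.38. CCNB1 (ENSG00000134057.14) lies on chromosome 5 from 69167010 to 69178245 and CCNB2 (ENSG00000157456.7) on chromosome 15 from 59105078 to 59125045.

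CCNF, the F-box cyclin, had the strongest response of the 10 genes. It read 72.6 and 67.3 CPM in the controls, 19.4 and 22.2 CPM at 2 h and 65.5 and 79.2 CPM at 4 h. The 2 h libraries were far below the rest, and those of 4 h spanned the controls. CCNF fell 3.36-fold at 2 h (log2 -1.75, SE 0.12, edgeR adjusted p = 5.70e-07), and only 37 of 16209 genes had a lower value in that comparison. It rose 3.48-fold from 2 h to 4 h (log2 1.80, SE 0.12, edgeR adjusted p = 3.51e-07) and its 4 h value was log2 0.05 (95% interval -0.21 to 0.30). CCNF (ENSG00000162063.12) lies on chromosome 16 from 2429394 to 2458854. Of its 6309 exonic bases 527 are shared with AC106820.6 on the opposite strand, which had no counts under this name. A further opposite-strand gene, AC106820.5, shares 219 and had at most 13 counts in a library.

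CDC25A, the phosphatase that frees CDK2 from inhibition at the G1/S border, had 75.2 and 76.7 CPM in the controls, 34.1 and 44.9 CPM at 2 h and 80.2 and 81.2 CPM at 4 h. The 2 h libraries lay below all others. CDC25A fell 1.92-fold (log2 -0.94, SE 0.12, edgeR adjusted p = 8.51e-05) and rose 2.04-fold from 2 h to 4 h (log2 1.03, SE 0.12, edgeR adjusted p = 4.22e-05). CDKN1B, the gene of the inhibitor p27, had 17.1 and 16.1 CPM in the controls, 19.0 and 17.8 CPM at 2 h and 19.8 and 18.3 CPM at 4 h. Its heme libraries were all above the controls, yet no comparison was called (at 2 h log2 0.15, 95% interval -0.12 to 0.42; at 4 h log2 0.20, 95% interval -0.07 to 0.47). CDC25A (ENSG00000164045.11) lies on chromosome 3 from 48157146 to 48188402 and CDKN1B (ENSG00000111276.10) on chromosome 12 from 12715058 to 12722371.

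Set against its inhibitor, CCNE1 changed places with CDKN1B at 2 h. The log2 ratio of CCNE1 to CDKN1B reads was 0.66 and 0.90 in the controls, -0.62 and -0.23 at 2 h and 0.61 and 0.89 at 4 h. In reads this was 1.72 of CCNE1 per CDKN1B read in the controls, 0.745 at 2 h and 1.68 at 4 h.

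**Figure D3:**
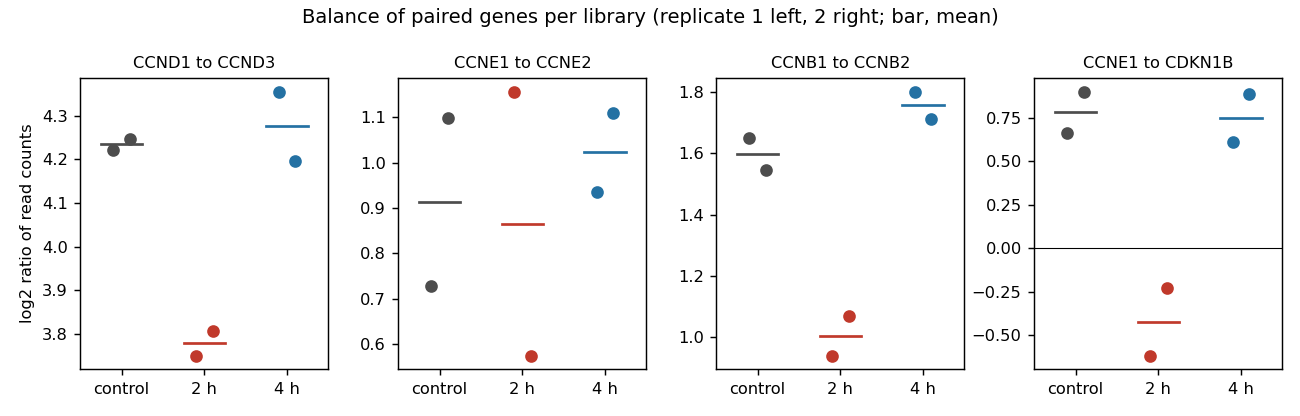
Log2 ratio of read counts (vertical axes, scaled per panel and not from 0) for 4 gene pairs in each library, by group; bars are means of 2 libraries. The ratios of CCND1 to CCND3, CCNB1 to CCNB2 and CCNE1 to CDKN1B are lower in both 2 h libraries than in the 4 others, and that of CCNE1 to CCNE2 overlaps between groups.

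Levels of different genes were compared per kilobase of exon. In the controls the order was CCND1 (133 ± 1.49 CPM per kilobase, SD, n = 2), CCNB1 (101 ± 4.04), CCNA2 (32.3 ± 1.24), CCNB2 (30.4 ± 0.300), CDC25A (18.4 ± 0.264), CCNE1 (11.2 ± 0.857), CCNF (11.1 ± 0.593), CDKN1B (5.91 ± 0.234), CCND3 (5.89 ± 0.00773) and CCNE2 (3.45 ± 0.359). CCNE1 and CCNF did not differ beyond their spread, and neither did CDKN1B and CCND3. At 2 h CCNB2 (33.0 ± 1.74) stood above CCNA2 (17.8 ± 3.72), and CDKN1B (6.55 ± 0.294) and CCND3 (6.48 ± 0.188) stood above CCNF (3.30 ± 0.316) in CPM per kilobase. CCNE1 at 2 h (5.41 ± 0.787) was also lower than CDKN1B, with libraries at 4.85 and 5.97 against 6.76 and 6.34 CPM per kilobase. At 4 h the order of the first 2 genes, CCND1 (146 ± 4.11) and CCNB1 (98.4 ± 4.99), was as in the controls.

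The 2 h replicates were not equally far from the controls. Replicate 1 lay lower than replicate 2 relative to the control mean for CCNE2 (log2 -1.45 against -0.57), CCNA2 (-1.09 against -0.66), CDC25A (-1.15 against -0.76), CCNE1 (-1.21 against -0.91) and CCNF (-1.85 against -1.66). CCNB1 (-0.49 against -0.47) and CCND1 (-0.32 against -0.32) were nearly equal. HMOX1 was also higher in replicate 1, at 451 CPM, than in replicate 2, at 328 CPM. The part of such library differences in the results was not tested. The log2 values of the 7 genes at 2 h stayed negative in all 14 other settings, which include leaving out each single library. They ran at most to -0.25 for CCND1 and -0.57 for CCNE2. When a change beyond 1.5-fold was required, 3 remained: CCNF (edgeR glmTreat adjusted p = 1.04e-05), CCNE1 (edgeR glmTreat adjusted p = 0.0169) and CDC25A (edgeR glmTreat adjusted p = 0.0405). The blood markers PTPRC, CD14 and HBB summed to between 0.482 and 0.834 CPM in the controls and 1.93 and 2.61 CPM at 2 h (0.775 and 1.03 CPM at 4 h), nearly all from CD14, with HBB at 0 throughout. The fibroblast markers COL1A1, DCN and LUM summed to 26.3 to 29.1 CPM in the controls, 41.4 to 48.3 CPM at 2 h and 25.3 to 32.4 CPM at 4 h, nearly all from COL1A1, with DCN at 0 in 5 of 6 libraries. Of each of these lists 1 of 1 tested genes was called higher at 2 h, CD14 and COL1A1. Their part in the falls was not tested.

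At 4 h the comparison with control called 0 of the 10 genes with edgeR and 0 with DESeq2, and 0 had an unadjusted edgeR p under 0.05. Over all genes 0.0247% were called higher and 0.00617% lower at 4 h, and 3.60% had an unadjusted p under 0.05. The 10 log2 values ran from -0.23 for CCNA2 to 0.20 for CDKN1B. A p that misses the threshold does not show equal levels: the widest 95% interval at 4 h was that of CCNE2, from -0.38 to 0.49. Between 2 h and 4 h, 7 of the 10 genes rose, the same 7 that had fallen, and CCNB2 fell. Of all genes tested 14.0% were called higher and 14.1% lower in that comparison. Scaling to library totals alone gave 1643 higher and 2745 lower over all genes, in place of 2270 and 2288. The 2 h libraries enter both comparisons, so the values of a gene in them are not independent.

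**Figure D4:**
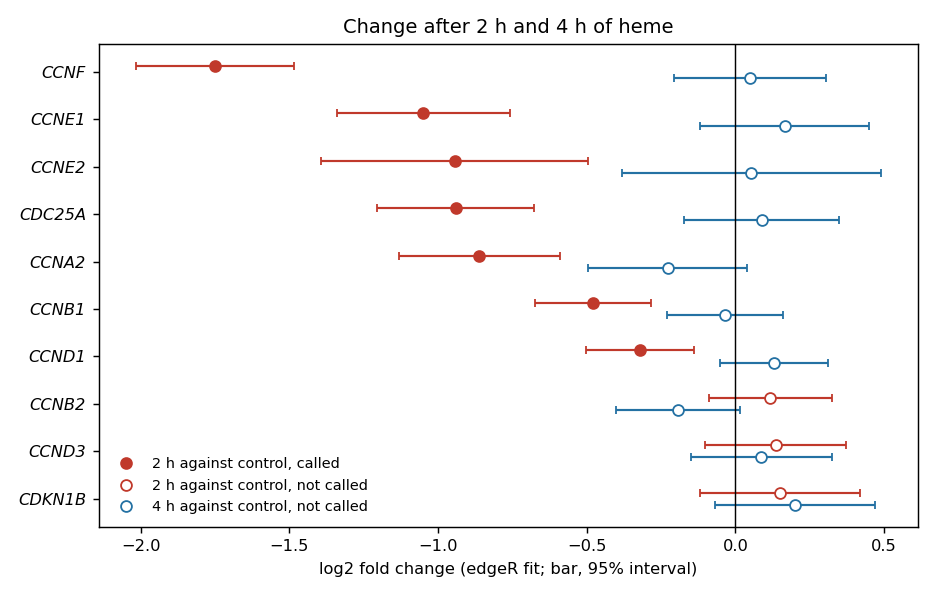
Log2 fold change from the edgeR fit (horizontal axis; bars, 95% intervals) of the 10 genes at 2 h (red) and 4 h (blue) against control; filled points are called. The 7 filled points, from -1.75 for CCNF to -0.32 for CCND1, are all at 2 h, and every 4 h interval includes 0.

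The profiles most like those of the 2 strongest members were sought among 11931 genes with a mean of at least 2 CPM, by Euclidean distance over the 6 libraries between log2 CPM values centred on the control mean. Nearest to CCNF were TBC1D30 (distance 0.258; log2 -1.77 at 2 h, 0.15 at 4 h), HJURP, a chaperone of centromere histones (distance 0.377; log2 -1.83 and -0.13), and ADAMTS1, a secreted protease (distance 0.416; log2 -1.48 and 0.13). Nearest to CCNE1 were GJC1, a gap junction gene (distance 0.0848; log2 -1.07 and 0.13), DDN (distance 0.132; log2 -1.004 and 0.12) and AC010536.1 (distance 0.173; log2 -1.12 and 0.17).

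The rest of the machinery was described with 87 other genes in 7 lists, of which 86 were tested. The counts of the lists at 2 h are to be read beside the 15.9% of all genes called higher and the 15.8% called lower, and shares of such short lists are coarse. Among 16 tested other cyclins 2 rose and 2 fell at 2 h (12.5% each way, near that background), with a median log2 of -0.01. CCNA1, the second cyclin A gene, rose (log2 0.57, SE 0.12, edgeR adjusted p = 0.0032), from 15.0 and 15.1 CPM to 22.7 and 22.1 CPM, where CCNA2 fell. CCNG2 also rose (log2 0.47, SE 0.13). CCNC, the cyclin of the Mediator kinase module (log2 -0.42, SE 0.12), and CCNJ (log2 -0.42, SE 0.12) fell. The other 12 tested cyclins of this list were not called.

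Of 8 kinases and phosphatases 2 rose and 2 fell at 2 h (25% each way), with a median log2 of -0.02. CDK1, the mitotic kinase (log2 -0.66, SE 0.12, edgeR adjusted p = 0.0012), and CDK6, a partner of D-type cyclins (log2 -0.73, SE 0.15, edgeR adjusted p = 0.00262), fell. CDC25C (log2 0.87, SE 0.14, edgeR adjusted p = 3.60e-04) and CDC25B (log2 0.44, SE 0.09, edgeR adjusted p = 0.0029) rose, where the third phosphatase of the family, CDC25A, fell. CDC25C went from 12.7 and 11.7 CPM to 24.0 and 20.4 CPM and was at 10.4 and 11.0 CPM at 4 h. CDK2 and CDK4 were not called, with log2 0.0024 (SE 0.14) and -0.02 (SE 0.09).

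CDK inhibitors and inhibitory kinases had 4 of 9 members higher (44.4%) and 2 lower (22.2%) at 2 h (median log2 0.32). CDKN2B, the gene of the CDK4 and CDK6 inhibitor p15, rose 3.95-fold (log2 1.98, SE 0.15, edgeR adjusted p = 1.00e-06), from 6.17 and 7.95 CPM to 29.1 and 26.7 CPM. It was back at 7.59 and 7.14 CPM at 4 h. CDKN1A, the gene of p21 (log2 0.48, SE 0.10), CDKN1C, that of p57 (log2 0.95, SE 0.23), and CDKN2C, that of p18 (log2 0.71, SE 0.18), rose too. WEE1, a kinase that holds CDK1 inactive (log2 -0.91, SE 0.14, edgeR adjusted p = 2.49e-04), and the phosphatase gene CDKN3 (log2 -0.32, SE 0.10) fell. At 4 h CDKN1A (log2 -0.31, SE 0.10) and CDKN2C (log2 -0.49, SE 0.18) had the smallest p-values of this list and were not called (edgeR adjusted p = 0.99995 for each).

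Among 18 genes of the RB, E2F and DREAM group, which represses and induces S phase genes, 7 fell (38.9%) and 2 rose (11.1%) at 2 h (median log2 -0.19). The repressor gene E2F8 fell most (log2 -1.50, SE 0.18, edgeR adjusted p = 5.05e-05), from 13.6 and 12.7 CPM to 3.68 and 5.61 CPM. The activator E2F2 (log2 -1.16, SE 0.23), LIN9, a core subunit of the MuvB complex (log2 -0.82, SE 0.14), and E2F5 (log2 -0.59, SE 0.12) fell as well. RBL2, an RB relative (log2 0.44, SE 0.11), and TFDP2, an E2F partner (log2 0.47, SE 0.12), rose. E2F1 was not called (log2 0.03, SE 0.14), nor was RB1 (log2 0.18, SE 0.15).

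Genes for the turnover of cyclins and p27 had 8 of 18 members lower (44.4%) and 1 higher (5.56%) at 2 h (median log2 -0.17). FBXO5, an inhibitor of the anaphase-promoting complex that spares cyclins from destruction, fell nearly as much as CCNF (log2 -1.71, SE 0.16, edgeR adjusted p = 7.35e-06). It went from 53.9 and 47.9 CPM to 12.3 and 19.0 CPM and was at 47.1 and 47.0 CPM at 4 h. FBXW7, which marks cyclin E for destruction (log2 -0.62, SE 0.12), UBE2C, an enzyme of the anaphase-promoting complex (log2 -0.45, SE 0.09), FBXO31, an F-box gene (log2 -0.50, SE 0.11), and SKP2, which targets p27 (log2 -0.53, SE 0.15), fell. RNF123, a ubiquitin ligase subunit for p27, rose (log2 0.42, SE 0.11).

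Among 5 factors of mitotic cyclin transcription 2 fell (40%) and 0 rose at 2 h (median log2 -0.21): the CCAAT-binding NF-Y subunits NFYB (log2 -0.78, SE 0.14, edgeR adjusted p = 9.24e-04) and NFYA (log2 -0.53, SE 0.10, edgeR adjusted p = 0.00122). NFYC (log2 -0.21, SE 0.10), FOXM1 (log2 0.09, SE 0.10) and MYBL2 (log2 -0.08, SE 0.10) were not called. Of 12 regulators known to act upstream of CCND1 or CDKN1B, 4 rose (33.3%) and 0 fell at 2 h (median log2 0.12). They were JUN (log2 1.25, SE 0.11, edgeR adjusted p = 3.07e-06), the forkhead gene FOXO4 (log2 1.15, SE 0.20, edgeR adjusted p = 7.40e-04), TCF7L2 (log2 0.48, SE 0.13) and EGR1 (log2 0.47, SE 0.13). JUN read 81.6 and 86.5 CPM in the controls, 218 and 182 CPM at 2 h and 100 and 111 CPM at 4 h. At 4 h 0 of the 86 genes were called with edgeR, and 4 (4.65%), JUN, CDKN1A, CDKN2C and CCNO, had an unadjusted p under 0.05, near the 3.60% of all genes.

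**Figure D5:**
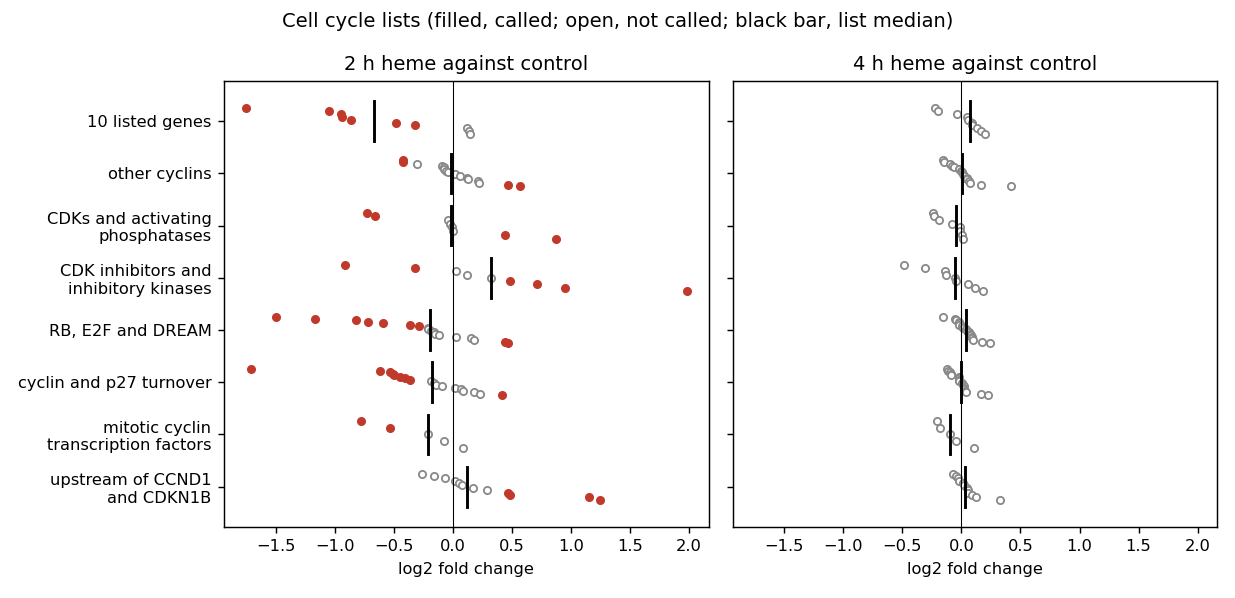
Log2 fold change (horizontal axis) of the 10 genes and of 7 lists of related cell cycle genes at 2 h (left) and 4 h (right) against control; each point is a gene, filled where called, and black bars are list medians. At 2 h called genes lie on both sides of 0 in 5 of the 7 lists, from -1.71 for FBXO5 to 1.98 for CDKN2B, and at 4 h no point is filled.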

How the data were processed

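RNA from 6 PC3 libraries was sequenced after Trizol extraction and an Illumina TruSeq preparation, per the labels' protocols. The authors deposited unnormalised counts of reads for each symbol, with 1 HTSeq-style table for every library. Trimmomatic, STAR, SAMtools, deepTools and hg38 were used, per the submitters' processing notes; the sources used here give no versions, annotation release, strand setting or read layout. Library sizes leave out the 5 HTSeq summary lines: reads outside genes made up 5.48% to 6.88% of a library, ambiguous reads 4.23% to 4.48%. Within each group the replicates were distinct libraries, with a mean chi-square between them of 8.78 to 33.9 per gene.

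Genes were tested with edgeR 4.0.16 in R 4.3.3: TMM, filterByExpr (minimum count 10), quasi-likelihood test with the 6 libraries fitted jointly (residual degrees of freedom, 3), two-sided, Benjamini-Hochberg adjusted over 16209 genes. SEs were derived from fold change and F statistic, and 95% intervals from the SE and the total degrees of freedom of the test. That total adds to a gene's own degrees of freedom a part borrowed from the spread of all genes. The p-values use the same total. Pair ratios use raw counts. Lengths and positions are from GENCODE release 29 (33164 symbols matched 1 gene), and promoter windows from RefSeq on GRCh38.p14. Other settings tried were the DESeq2 1.42.0 Wald test, DESeq2 size factors, library totals, no filter, the compared groups alone, a replicate block, glmTreat at 1.5-fold and leaving out each library. A block with crossed 2 h numbers was added after seeing the data.

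The members and lists were chosen with earlier results of these data known. Named were the 10 members, in each list the 4 genes with the smallest p at 2 h and the 2 at 4 h, genes of a direction with 5 or fewer calls, the 3 nearest profiles of the 2 members that changed most, and HMOX1. The 4 h genes of this rule that the text does not otherwise give, with edgeR adjusted p of 0.99995 each, were CDK7, LIN52 and SKP1; others named without a rule were chosen after their values were seen.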

Additional observations from a re-analysis of the deposited data

Results flagged for a closer look

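Levels at 2 h and at 4 h of heme differed, by the edgeR comparison of 4 h with 2 h, for 8 of the 10 genes. Over all 16209 genes tested, 14.0% were called higher and 14.1% lower in that comparison. The log2 difference was 1.80 for CCNF, 1.22 for CCNE1, 1.03 for CDC25A, 0.998 for CCNE2, 0.63 for CCNA2, 0.45 for CCND1 and 0.44 for CCNB1, all higher at 4 h. CCNB2 differed in the other direction, with -0.31, and was the member whose call most settings did not keep. CCND3 (log2 -0.05) and CDKN1B (log2 0.05) did not pass the test. Groups of 2 libraries are too small for a check of single outlying samples.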

How the results depend on the processing

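Of 420 recomputed fold changes of the 10 genes, 401 kept their direction and side of the threshold, 19 lost a call and 0 reversed a called direction. The losses were those of CCNB2 and CCND1 given in the report and those from requiring a change beyond 1.5-fold, which left 3 of the 10 genes at 2 h, 3 between 2 h and 4 h and, over all genes, 533 at 2 h, 3 at 4 h and 543 between the times. Leaving out 1 library gave 2321 to 6254 calls over all genes at 2 h (2321 without control replicate 1, 2979 without control replicate 2), 4 to 16 at 4 h (16 and 15 without 2 h replicate 1 and 2) and 2199 to 5819 between the times (2199 without 4 h replicate 1). At 4 h DESeq2 called 15 genes, the fit without a filter 10 and that of the compared groups alone 13, against 5. The cause was not tested. The replicate block gave 4809 calls at 2 h, 6 at 4 h and 4205 between the times, and among the 10 genes 7, 0 and 7. The differences between replicates 1 and 2 correlated at 0.29 between control and 4 h, -0.32 between control and 2 h and -0.20 between 2 h and 4 h. Not every pair of groups was above 0.1, so the numbers were not taken as pairs. Both negative values involve the 2 h group, and with its numbers crossed, a setting chosen after seeing the data, the block gave 6277, 5 and 5789 calls. The sign of the change in the CCNE1 to CCNE2 ratio depended on the library left out, from -0.34 to 0.24 at 2 h. Scarce genes such as CCNB3, with at most 14 counts per library, are limited by depth.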

Other observations

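The 8 cyclin genes summed to 1225 ± 8.95 CPM in the controls, 922 ± 13.2 CPM at 2 h and 1263 ± 21.8 CPM at 4 h (SD, n = 2). CCND1 made up between 51.9% and 56.5% of this sum in every library. The E-type pair took 3.52% and 3.62% of it in the controls, 1.96% and 2.73% at 2 h and 3.61% and 3.96% at 4 h. The share of CCNF was 5.90% and 5.52% in the controls, 2.12% and 2.38% at 2 h and 5.12% and 6.35% at 4 h, while CCNA2, CCNB1 and CCNB2 together stayed between 31.4% and 35.9%. These shares are of reads and not corrected for gene length.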
